A study of Bos taurus with 12 samples.

Results

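The genes of the smooth muscle contractile apparatus were followed in biopsies of the uterine lining (endometrium) from grazing dairy cattle, taken at day 4 of the estrous cycle. The list named 36 contractile and cytoskeletal genes by symbol. Of these, 34 had a row in the count table of 13930 gene symbols, and the same 34 passed the filter on low counts that left 10959 genes for testing. The transcriptional coactivator MYOCD and the myosin phosphatase subunit PPP1R12B were not analysed here. The genes were grouped by role into 8 of the filament core, 7 that bind actin, 5 that control contraction, 9 of dense bodies and intermediate filaments, and 5 of the adhesion complex.

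Smooth muscle shortens when calcium-activated myosin light chain kinase phosphorylates the regulatory light chain of myosin, which then pulls on actin filaments decorated with tropomyosin, caldesmon and calponin. The filaments are anchored in dense bodies, held in place by desmin and filamins, and tied to the membrane by talin and vinculin. Many of these genes are switched on together by serum response factor with its coactivator myocardin. In the uterus such cells form the myometrium under the endometrium and the walls of blood vessels within it. Several members, such as the light chain MYL6, calponins 2 and 3 and talin, also work in cells other than muscle.

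RNA of 12 endometrial biopsies was sequenced, 3 in each of 4 classes of progesterone concentration recorded for day 4. Progesterone was under 0.25 ng/ml in the very low class (ANE in the sample titles). The low class (LPP4) was under 1.4, a bound its labels give in mg/dl. Animals of the high class (HPP4) exceeded 2.5 ng/ml, and those of the very high class (SO) exceeded 20 ng/ml. The sources used here do not say what ANE and SO stand for, whether these classes differ in more than progesterone, or whether the 3 replicates of a class are separate cows. The p-values therefore reflect only how far these samples scatter, which may be technical.

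Libraries held 3772564 to 8379489 counted reads. Levels are given as CPM, the counts of a gene relative to the total of its library after scaling between libraries. They take no account of transcript length, so levels of different genes were not compared. Of the epithelial markers 11 of 13 were in the table, and of the endometrial stromal markers 9 of 11, and each had reads in all 12 libraries. Very low replicate 1 stood apart: its 11 epithelial markers summed to 210.1 CPM, against 1606 to 5788 CPM in the other 11 libraries. It decided several comparisons below, which are therefore given with and without it.

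Most of the 34 genes were lower in each low library than in any library of the upper classes, and for most of them very low replicate 1 stood apart from its own class. Together they took 0.427% to 0.715% of all counted reads in the 3 low libraries, 2.72% to 5.89% in the high and 2.77% to 4.98% in the very high libraries. In the very low class they took 0.497% and 0.819% in replicates 2 and 3 and 9.94% in replicate 1. In biopsy RNA, fewer muscle cells and less RNA of these genes per cell cannot be told apart. For 27 of the 34 genes all 6 high and very high libraries lay above all 3 low libraries, a pattern met in 6.65% of all tested genes. For 25 genes those 6 libraries also lay above very low replicates 2 and 3, as for 4.19% of all tested genes. Very low replicate 1 was the highest of the 12 libraries for 31 of them, as it was for 22.6% of all tested genes. The exceptions were CNN3, PCP4 and SYNPO2.

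The genes also moved together within a class. High replicate 3 was the highest library of its class for 34 of 34 genes, where it was so for 37.2% of all tested genes. Very high replicate 3 led its class for 31 of 34, against 39.6% of all tested genes, and low replicate 3 led for 24 of 34, against 39.6%.

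**Figure D1:**
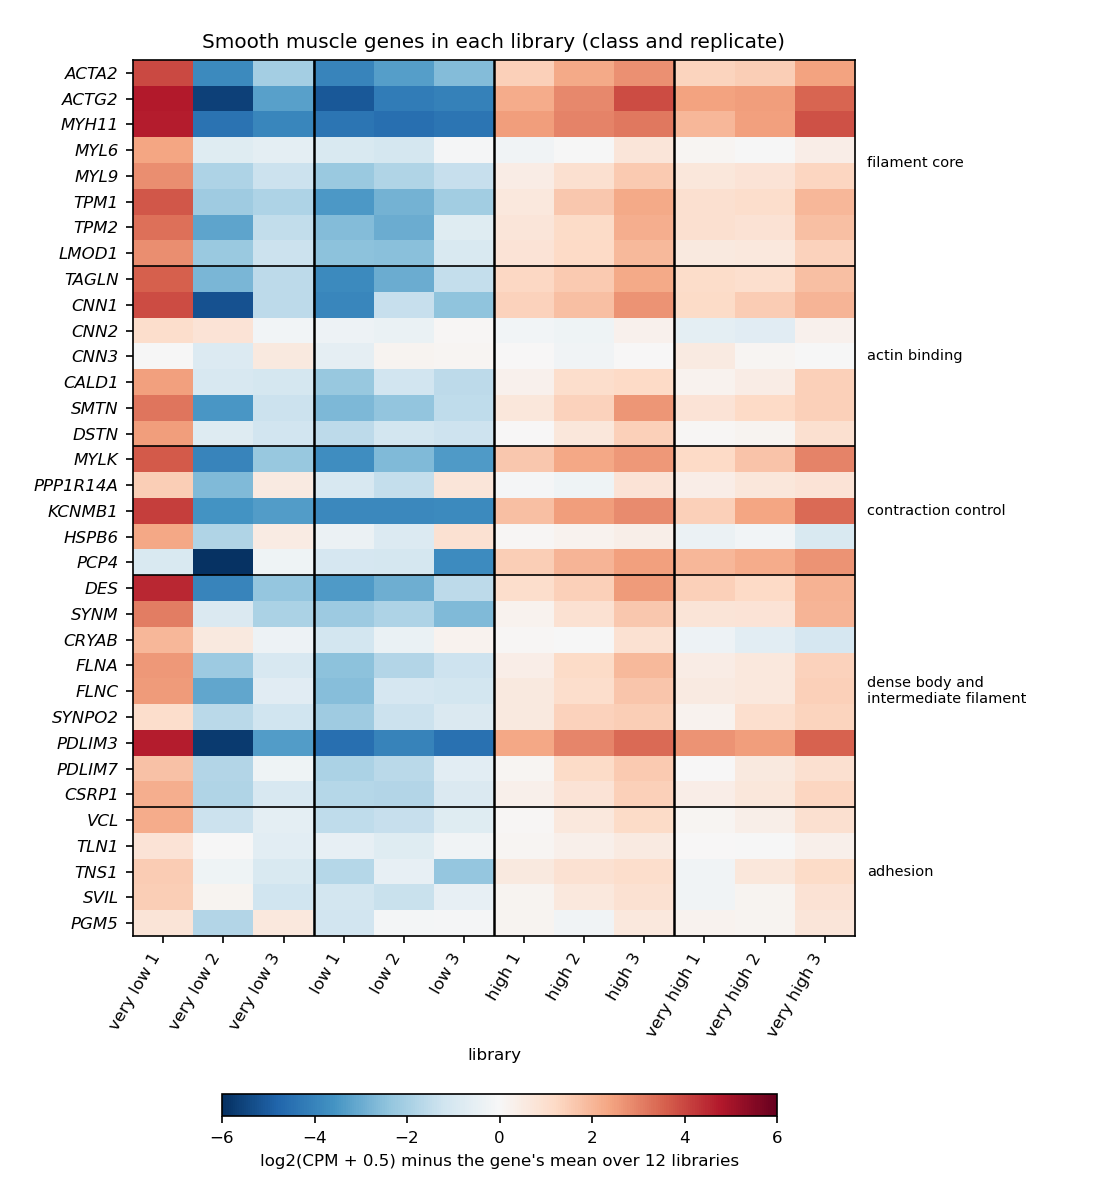
Each row is 1 smooth muscle gene, each column 1 library, and the colour is log2(CPM + 0.5) minus the gene's mean over the 12 libraries (red higher, blue lower). The 6 high and very high libraries and very low replicate 1 are red for most rows, very low replicates 2 and 3 and the low class are blue, and rows such as CNN2, CNN3 and CRYAB stay pale.

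Among the filament core genes, the smooth muscle alpha actin ACTA2 had 109, 173 and 281 CPM in low replicates 1 to 3, 4526, 8105 and 11312 CPM in the high libraries and 4325, 4766 and 9007 CPM in the very high libraries. Its very low libraries held 26594, 119 and 406 CPM. The low libraries thus lay below all 6 high and very high ones, and the very low class spanned both levels. The high class was above the low class by 5.41 ± 1.67 (SE) on the log2 scale, and the edgeR adjusted p of 0.351 missed the threshold of 0.05.

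The enteric gamma actin ACTG2, the actin isoform of visceral muscle walls, followed the same order with a wider span. It had 9.62, 17.8 and 20.0 CPM in the low libraries, 1603, 2539 and 5087 CPM in the high libraries and 1808, 1924 and 3848 CPM in the very high libraries. Its very low libraries held 9236, 6.45 and 34.6 CPM. The log2 fold change was 7.60 ± 2.19 (SE) for high against low and 7.32 ± 2.17 (SE) for very high against low (edgeR adjusted p = 0.351 and 0.268). ACTA2 and ACTG2 share most of their coding sequence, and how the authors counted reads that match both is not given in the sources used here. ACTC1, a further actin of nearly the same sequence, had 0 reads in very low replicate 1, the library with 150465 reads of ACTA2. It had 221 to 386 reads in the high and 226 to 1085 in the very high libraries. Whether these actins shared reads was not tested.

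The smooth muscle myosin heavy chain MYH11, the motor itself, was almost uncounted in the low class. Its low libraries lay at 1.92 to 2.17 CPM (2.07 ± 0.131, SD, n = 3), its high libraries at 309.8 to 494 CPM (413 ± 94.3, SD, n = 3) and its very high libraries at 221 to 769 CPM (431 ± 296, SD, n = 3). Very low replicate 1 held 1455 CPM and replicates 2 and 3 held 2.07 and 3.12 CPM. MYH11 overlaps NDE1 in the RefSeq gene table, and with the strand setting unknown their reads could not be separated. The essential light chain MYL6, which nonmuscle myosin also carries, overlapped between the low and high classes. It had 1091, 989 and 1966 CPM in the low libraries, 1826, 2080.3 and 3444 CPM in the high libraries, 2291, 2054 and 2722 CPM in the very high libraries and 10731, 1257 and 1399.6 CPM in the very low ones. Low replicate 3 lay above high replicate 1 (log2 fold change 0.86 ± 0.74, SE).

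The other 4 core genes lay between these extremes. The tropomyosins TPM1 and TPM2, which line the actin filament, the regulatory light chain MYL9 and the actin nucleator leiomodin LMOD1 had log2 fold changes of 4.36, 3.22, 2.83 and 3.18 for high against low, with no overlap between the 2 classes. In very high against low they had 4.11, 3.02, 2.72 and 2.70.

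The genes that bind actin fell into those that followed ACTA2 and 2 calponins that did not. TAGLN (transgelin, an early marker of smooth muscle differentiation) had 79.2, 140.4 and 416 CPM in the low libraries, 2620.5, 3343 and 5359 CPM in the high libraries, 2423, 2282 and 3874 CPM in the very high libraries and 13406, 168 and 378 CPM in the very low ones. CNN1, the smooth muscle calponin, had 26.6, 158 and 77.7 CPM in the low libraries, 1071, 1460.4 and 2669 CPM in the high libraries, 932, 1191 and 1731 CPM in the very high libraries and 6184, 10.6 and 141 CPM in the very low ones. The low libraries lay below all high and very high ones for both genes, with log2 fold changes of 4.16 ± 1.42 (SE) for TAGLN and 4.31 ± 1.66 (SE) for CNN1 in high against low.

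CNN3, an acidic calponin found in many cell types, had 193, 307 and 302 CPM in the low libraries, 284, 237 and 286 CPM in the high libraries, 408, 304 and 275 CPM in the very high libraries and 276, 156 and 413 CPM in the very low ones. All 4 classes overlapped, and the difference of high minus low was 0.00798 ± 0.332 (SE) on the log2 scale (95% interval -0.72 to 0.74). The sign of this difference changed with the processing. CNN3 overlaps the tested gene SLC44A3 in the RefSeq gene table. CNN2, the calponin of nonmuscle cells and leukocytes, ran from 199 to 271 CPM in the low, 214 to 311 CPM in the high, 162 to 314 CPM in the very high and 234 to 543 CPM in the very low libraries. Its high against low difference was 0.15 ± 0.35 (SE).

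Destrin (DSTN), which takes actin filaments apart, also separated the low class from both upper classes. It had 148, 203 and 186 CPM in the low libraries, 441, 696 and 1181 CPM in the high libraries, 462, 496 and 848 CPM in the very high libraries and 2491, 258 and 196 CPM in the very low ones. Caldesmon (CALD1), which holds back the actomyosin ATPase, and smoothelin (SMTN), found in contractile smooth muscle, had log2 fold changes of 2.50 and 3.92 for high against low, again without overlap.

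Among the genes that control contraction, the myosin light chain kinase MYLK had 15.2, 33.3 and 19.2 CPM in the low libraries, 634, 1039 and 1279 CPM in the high libraries, 474, 699 and 1633 CPM in the very high libraries and 2690.2, 12.9 and 42.8 CPM in the very low ones. KCNMB1, the beta subunit that tunes the calcium-activated potassium channel of smooth muscle, was counted at single reads in the low class. It had 1 read in each low library, 1 and 3 reads in very low replicates 2 and 3, and 900 reads in very low replicate 1. In the same unit it had 234, 407 and 465 reads in the high and 206, 370 and 718 reads in the very high libraries. Scaled for depth, the 1106 summed reads of the high class stood to the 3 of the low class as 364 to 1 (95% exact interval 124 to 1766, counting error only).

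PCP4, a small protein that binds calmodulin, was the 1 control gene that left the common pattern in very low replicate 1. It had 30.7, 30.1 and 4.05 CPM in the low libraries, 174, 257 and 345 CPM in the high libraries and 251, 296 and 409 CPM in the very high libraries. The very low libraries had 32.7, 0.516 and 51.9 CPM, so the library with the most ACTA2 lay below all 6 high and very high ones for PCP4. PCP4 was the 1 gene of the 34 whose very low range overlapped neither the high nor the very high range. It was higher by 3.17 ± 1.04 (SE) in the high and by 3.48 ± 1.05 (SE) in the very high class on the log2 scale (edgeR adjusted p = 0.171 and 0.0919).

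The remaining control genes overlapped between the low class and both upper classes. HSPB6, a small heat shock protein phosphorylated when smooth muscle relaxes, had 298, 210.3 and 707 CPM in the low libraries, 390.3, 436 and 486 CPM in the high libraries, 297, 333 and 199.9 CPM in the very high libraries and 1904, 108 and 526 CPM in the very low ones. PPP1R14A, the inhibitor of myosin phosphatase also called CPI-17, had 66.2, 48.2 and 216 CPM in the low libraries, 122, 107 and 228 CPM in the high libraries, 168, 205 and 229.9 CPM in the very high libraries and 356, 20.4 and 186 CPM in the very low ones. Low replicate 3 lay above the other low libraries for both genes and inside or above the high range. The 95% intervals of high minus low ran from -1.59 to 1.82 for HSPB6 and from -1.30 to 2.24 for PPP1R14A on the log2 scale. HSPB6 had the lowest difference of the 34 in very high against low, at -0.55 ± 0.775 (SE).

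Of the dense body and intermediate filament genes, desmin (DES), the muscle intermediate filament, had 60.6, 81.6 and 210.0 CPM in the low libraries, 1318, 1703 and 3700.4 CPM in the high libraries, 1709, 1431 and 2654 CPM in the very high libraries and 14767, 39.8 and 125 CPM in the very low ones. Filamin A (FLNA), which crosslinks actin, had 275, 445 and 634 CPM in the low libraries, 2005, 3309 and 5807 CPM in the high libraries, 2050.1, 2349 and 3882 CPM in the very high libraries and 9211, 332 and 781 CPM in the very low ones. CSRP1, a LIM protein of the actin skeleton, had 211, 205 and 374 CPM in the low libraries, 837, 1208 and 1847 CPM in the high libraries, 915, 1089.8 and 1705 CPM in the very high libraries and 3137, 195 and 349.5 CPM in the very low ones. For these 3 genes the low class lay apart from both upper classes, with high against low at 4.25, 3.04 and 2.30 log2 units.

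PDLIM3, a protein of the Z-disc and dense body, was at 3.69 to 5.50 CPM in the low class and at 486 to 1029.7 CPM in the high class, a log2 fold change of 7.43 ± 2.14 (SE). The filament linkers SYNM, FLNC, SYNPO2 and PDLIM7 had log2 fold changes of 3.47, 2.60, 2.55 and 2.35 and did not overlap between these classes either. CRYAB, a chaperone that binds desmin, did not follow desmin: it had 22.9, 38.3 and 58.9 CPM in the low libraries, 52.5, 49.0 and 95.8 CPM in the high libraries, 41.0, 32.0 and 24.7 CPM in the very high libraries and 201, 74.6 and 40.8 CPM in the very low ones. Its differences were 0.72 ± 0.54 (SE) for high against low and -0.30 ± 0.54 (SE) for very high against low.

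The adhesion genes had the lowest median of the 5 roles for high against low, 1.54 on the log2 scale, where the core genes had the highest, 3.79. Vinculin (VCL), which links talin to actin, had 86.8, 95.8 and 148 CPM in the low libraries, 261, 383 and 554 CPM in the high libraries, 273, 319 and 478 CPM in the very high libraries and 1185, 101 and 165 CPM in the very low ones. Talin (TLN1), which binds integrins, had 362, 302 and 441 CPM in the low libraries, 544, 615 and 734 CPM in the high libraries, 506, 491 and 628 CPM in the very high libraries and 899.8, 505 and 327 CPM in the very low ones. Both separated the low class from the upper 2, at 1.85 ± 0.77 (SE) and 0.78 ± 0.34 (SE) log2 units for high against low.

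PGM5, a phosphoglucomutase relative that sits in adhesion plaques of muscle, had 219, 440.1 and 454 CPM in the low libraries, 547, 422 and 754 CPM in the high libraries, 551, 536 and 787 CPM in the very high libraries and 823, 141 and 747 CPM in the very low ones. High replicate 2 lay inside the low range, whereas the very high libraries all lay above it (0.75 ± 0.55, SE). TNS1 and supervillin (SVIL), which join actin to adhesion sites and to the membrane, had log2 fold changes of 2.21 and 1.54 for high against low without overlap.

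**Figure D2:**
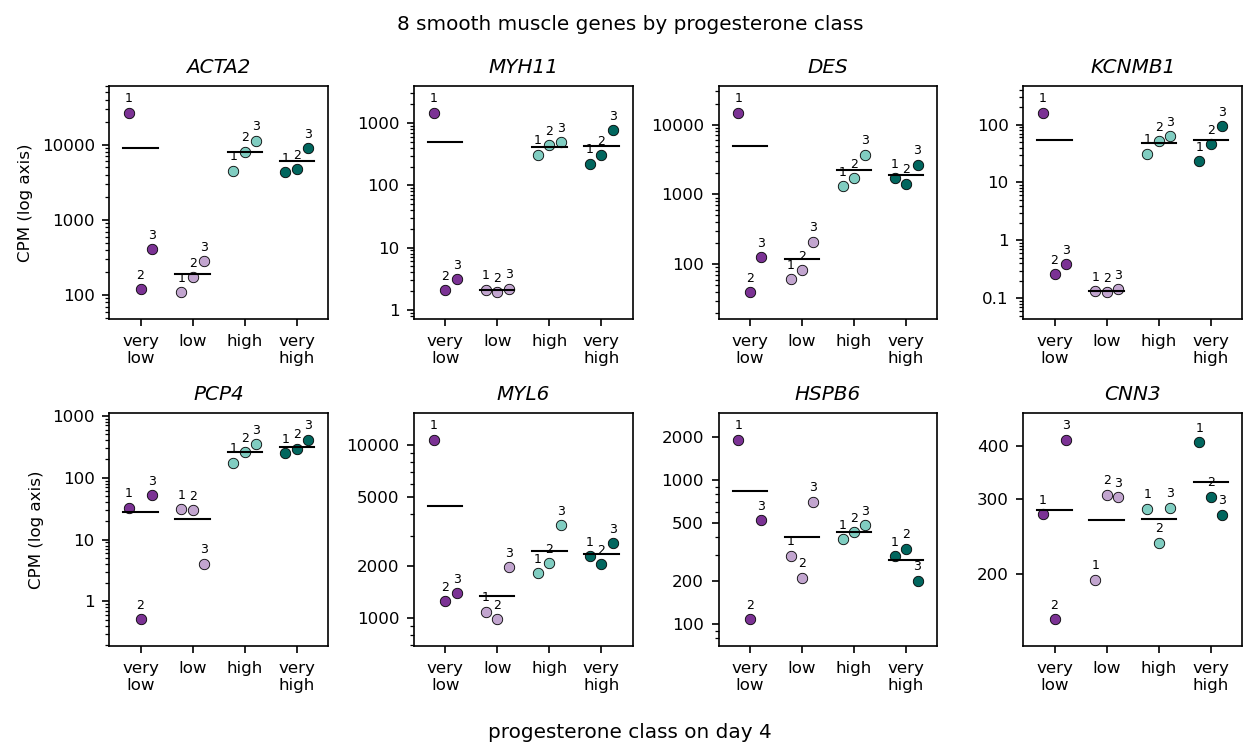
CPM on a log axis for 8 of the genes in each progesterone class, 1 point per library with its replicate number, and a bar at the class mean. The very low replicate 1 point stands with the upper classes for ACTA2, MYH11, DES and KCNMB1 but with the low class for PCP4, and CNN3 overlaps in all 4 classes.

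Set against the whole table, the separation of the low class from the upper 2 held for most of these genes. In high against low, the CPM ranges of 27 of the 34 genes did not overlap, each higher in the high class, where 10.3% of all tested genes were higher and 9.68% lower without overlap. The 7 that overlapped were MYL6, CNN2, CNN3, PPP1R14A, HSPB6, CRYAB and PGM5. By role, 7 of 8 core genes, 5 of 7 actin-binding, 3 of 5 control, 8 of 9 dense body and 4 of 5 adhesion genes were apart. The median log2 fold change of the 34 was 2.71, against -0.02 over all tested genes.

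The comparison of very high against low shares the low libraries with the one before. The ranges of 29 genes did not overlap, each higher in the very high class, where 11.8% of all tested genes were higher and 11.1% lower without overlap. The 5 that overlapped were CNN2, CNN3, PPP1R14A, HSPB6 and CRYAB. The median log2 fold change was 2.51, against -0.01 over all tested genes.

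No member passed an adjusted p of 0.05 in either comparison, and neither did any of the 10959 genes (0%), by edgeR's quasi-likelihood test with Benjamini-Hochberg adjustment. The members' smallest adjusted p were 0.351 and 0.268. At an unadjusted p under 0.05 there were 27 members in high against low and 25 in very high against low, each higher. Of all tested genes 4.15% were higher and 6.11% lower at that level in the first comparison, and 4.46% higher and 7.44% lower in the second. With limma-voom no member passed. With DESeq2 15 members rose in high against low and 11 in very high against low, where 2.2% and 3.38% of all tested genes passed in either direction.

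Very low replicate 1 belongs to neither class of these comparisons, but it enters the estimate of spread that all libraries share. Without it the ACTA2 difference of high against low stayed at 5.40 while its standard error went from 1.67 to 0.685. In that fit 18 of the 34 genes rose in high against low (edgeR adjusted p from 9.49e-04 to 0.0453), among 76 of 11098 tested genes (0.685%). They were ACTA2, ACTG2, MYH11, MYL9, TPM1 and LMOD1 of the core, TAGLN, CALD1, SMTN and DSTN of the actin-binding genes, the control genes MYLK and KCNMB1, and DES, SYNM, FLNA, SYNPO2, PDLIM3 and CSRP1 of the dense body. None of the 5 adhesion genes passed. The smallest adjusted p was that of MYH11, at 7.63 ± 0.55 (SE) log2 units.

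In very high against low 13 of the same 18 rose without that library, where 0.586% of all tested genes passed. A fit of the 2 compared classes alone called 6 members in high against low, where 0.244% of all tested genes passed: ACTA2, ACTG2, MYH11, MYLK, KCNMB1 and PDLIM3, all among the 18. It called 11 members in very high against low, 10 of them among the 13, where 0.818% of all tested genes passed.

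**Figure D3:**
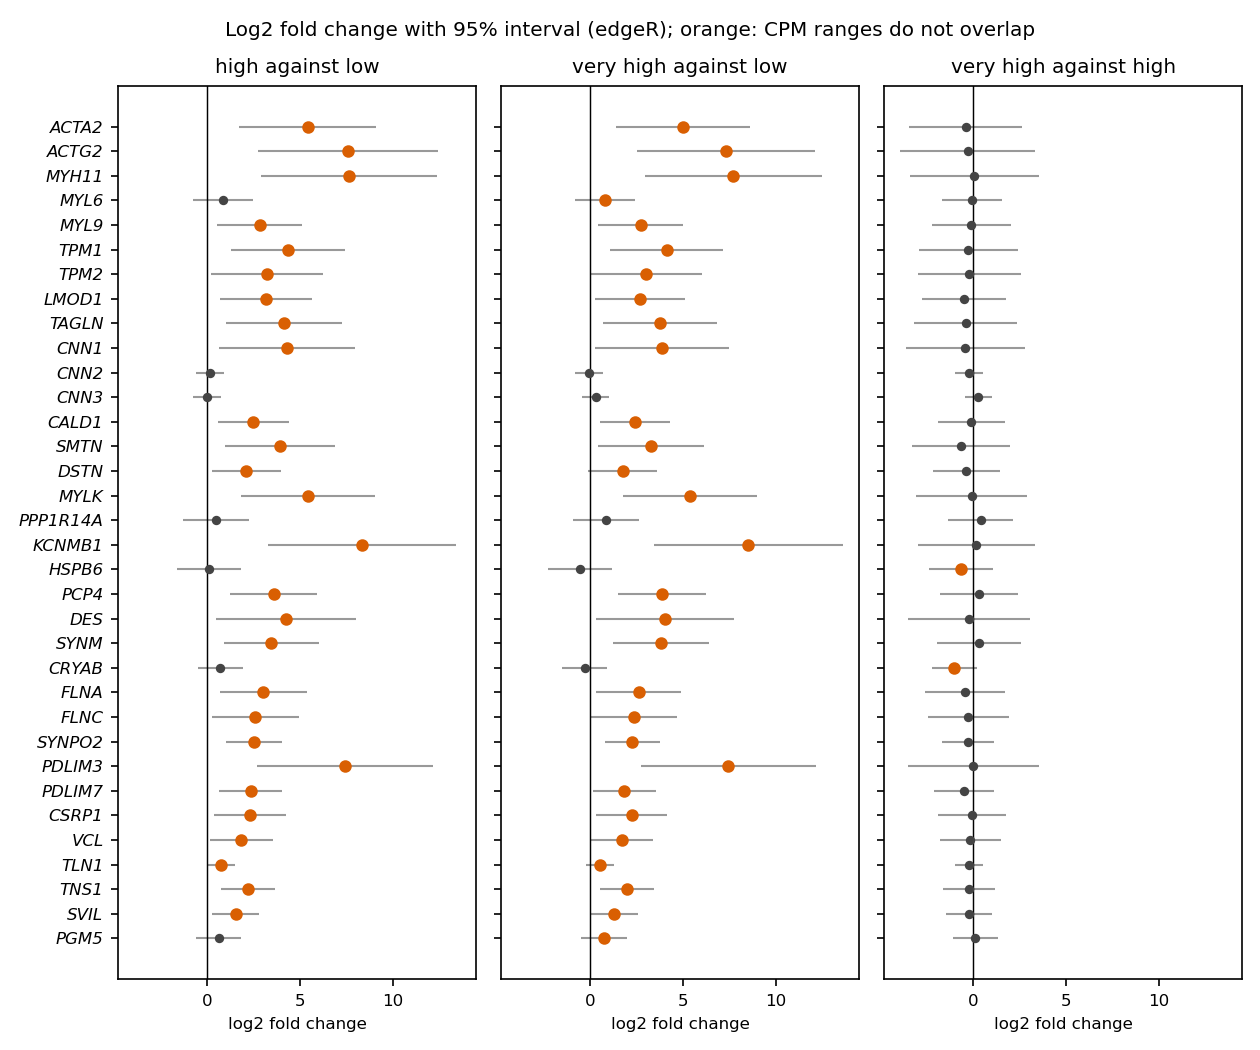
Log2 fold change of each of the 34 genes with its 95% interval from the edgeR fit of all 12 libraries, for high against low, very high against low and very high against high. Orange points mark genes whose CPM ranges do not overlap between the 2 classes: 27, 29 and 2 genes.

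The very low class could not be placed as a whole, because its replicates lay at both ends. In very low against low all 34 fitted differences were positive, with a median of 2.63, and 27 had an unadjusted p under 0.05, each higher, where 6.36% of all tested genes were higher and 5.22% lower. The ranges of 2 genes only, CALD1 and KCNMB1, did not overlap, both higher, where 4.63% of all tested genes were higher and 5.11% lower. KCNMB1 rests there on 1 and 3 reads in replicates 2 and 3. Without very low replicate 1 the very low class kept only replicates 2 and 3. The median was then 0.31, against 0.0092 over all tested genes. No member had an unadjusted p under 0.05 in that fit, whereas other tested genes did. The ranges of CALD1 and KCNMB1 alone were again apart, both higher, where 8.38% of all tested genes were higher and 7.93% lower. With so few libraries this does not show that the very low and low classes were equal. No member passed the adjusted threshold by edgeR in either fit (0% of all genes passed), nor by limma-voom. DESeq2 on all 12 libraries called 13 members higher, where 2.67% of all tested genes passed.

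Set against the very low class, the upper classes showed the reverse dependence. In very high against very low, where 1.52% of all tested genes passed the adjusted threshold in edgeR, no member did. PCP4 was higher at an unadjusted p under 0.05, as were 10.4% of all tested genes, and CRYAB and CNN2 were lower, as were 13.4%. The range of PCP4 alone did not overlap, where 13.4% of all tested genes were higher and 12.2% lower without overlap. The median of the 34 log2 fold changes was -0.30. Without very low replicate 1 it was 2.32, 15 members rose (edgeR adjusted p from 0.00577 to 0.0478) and none fell, where 5.79% of all tested genes passed. The ranges of 26 members were then higher without overlap, where 20% of all tested genes were, and CRYAB was lower, as were 21.7%. In that fit 11 members rose in high against very low, where 1.17% of all tested genes passed.

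With all libraries, high against very low called no member in edgeR (0% of all genes) and 1 member, PCP4, was higher at an unadjusted p under 0.05, where 8.6% of all genes were higher and 10.2% lower. Its ranges did not overlap, where 10.7% of all genes were higher and 9.63% lower. The gene with the lowest difference was DES, at -1.15 (95% interval -4.47 to 2.16), which stood at 4.74 without very low replicate 1. CRYAB was lowest in very high against very low (-1.69 ± 0.56, SE, edgeR adjusted p = 0.109). DESeq2 called PCP4 higher in both comparisons and CRYAB lower in very high against very low, where 7.19% (high) and 13.8% (very high) of all genes passed, and limma-voom called no member. A joint test of the 4 classes called no member (smallest edgeR adjusted p = 0.164, 12 at an unadjusted p under 0.05, where 17.8% of all genes were). Without very low replicate 1 it called 18, where 1.97% of all genes passed.

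Very high and high libraries overlapped for 32 of the 34 genes. No member had an unadjusted p under 0.05 in very high against high, where 0.401% of all tested genes were higher and 0.392% lower at that level, and none passed in edgeR, limma-voom or DESeq2 (0% of all tested genes in edgeR). The fitted differences ran from -1.01 for CRYAB to 0.40 for PPP1R14A, with a median of -0.22. CRYAB and HSPB6 were lower in the very high class without overlap, where 3.89% of all tested genes were lower and 3.2% higher. The 95% interval was -2.22 to 0.19 for CRYAB and -3.45 to 2.65 for ACTA2, so that differences of several fold in either direction remain possible for ACTA2.

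Ratios of reads between members of 1 library do not depend on the scaling between libraries, and gene length cancels when 1 ratio is followed across libraries. The ratio of ACTG2 to ACTA2 differed between the libraries with low and those with high levels of both genes. Per 100 ACTA2 reads there were 8.81, 10.3 and 7.11 ACTG2 reads in low replicates 1 to 3, 35.4, 31.3 and 45.0 in the high libraries, and 41.8, 40.4 and 42.7 in the very high libraries. Very low replicate 1 had 34.7, and replicates 2 and 3 had 5.42 and 8.51. The libraries with less ACTA2 thus held proportionally still less of the visceral isoform. No test was run on these ratios, which are given as a description.

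The ratio of the motor to ACTA2 went the same way. Per 100 ACTA2 reads there were 1.93, 1.11 and 0.773 MYH11 reads in the low libraries, 6.85, 5.38 and 4.37 in the high, 5.11, 6.33 and 8.54 in the very high, and 5.47, 1.74 and 0.768 in the very low libraries. The ratio of desmin to ACTA2 went the other way. There were 55.5, 47.2 and 74.8 DES reads per 100 ACTA2 reads in the low libraries, 29.1, 21.0 and 32.7 in the high, 39.5, 30.0 and 29.5 in the very high, and 55.5, 33.4 and 30.8 in the very low ones. All 3 low libraries lay above the high and very high ones.

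The ratio of the essential light chain MYL6 to the regulatory light chain MYL9 was higher in the low class than in both upper classes. Per 100 reads of MYL9 there were 518, 355 and 513 reads of MYL6 in the low libraries, 137, 110.1 and 116 in the high, 147, 117 and 112 in the very high, and 155, 468 and 346 in the very low libraries. Very low replicate 1 stood within or beside the upper classes in the ACTG2, MYH11 and MYL6 ratios, with the low class in the desmin ratio, and below both in the ratio of PCP4 to ACTA2. That library had 0.123 PCP4 reads per 100 ACTA2 reads, against 3.05 to 3.85 in the high and 4.54 to 6.21 in the very high libraries.

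**Figure D4:**
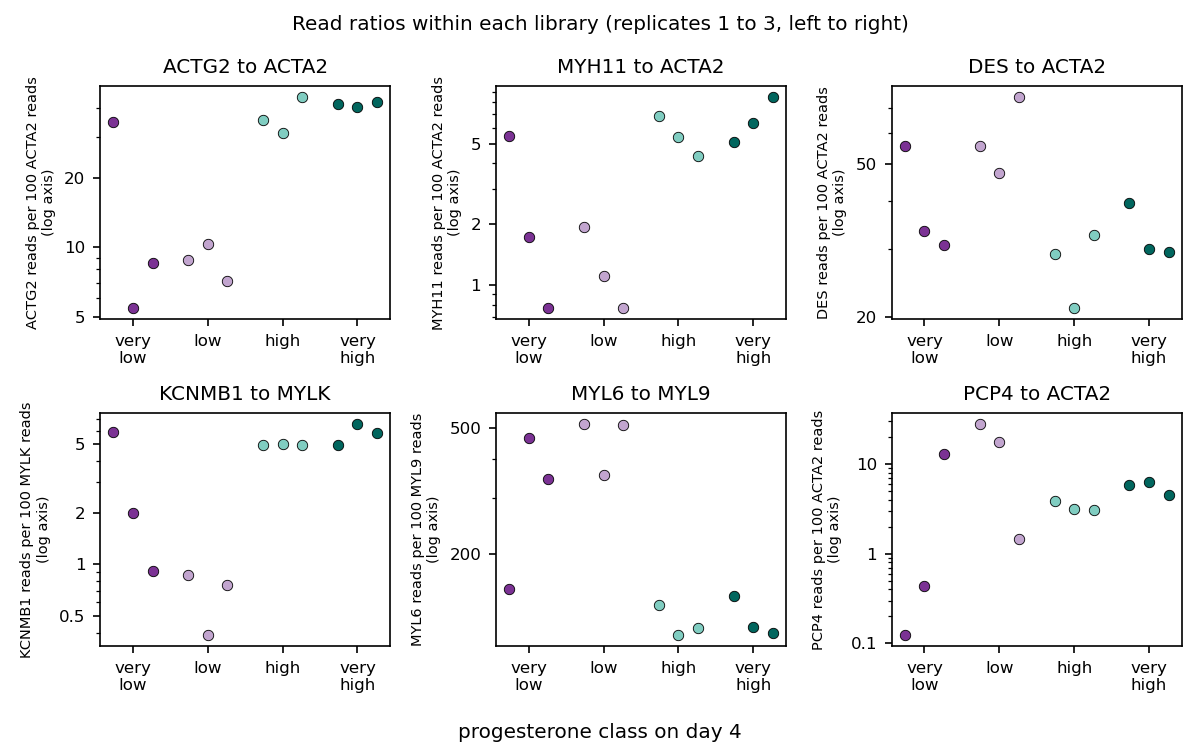
Reads of 1 gene per 100 reads of another in the same library, on log axes, for 6 pairs, with replicates 1 to 3 from left to right in each progesterone class. ACTG2 to ACTA2 runs from 5.42 to 10.3 in the low class and in replicates 2 and 3 of the very low class, and from 31.3 to 45.0 elsewhere, and PCP4 to ACTA2 is lowest in very low replicate 1 (the low-class KCNMB1 points rest on 1 read each).

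A list of 44 symbols of smooth muscle partners (ion channels, calcium handling, cyclic GMP signalling, caveolae, dystrophin-linked and integrin-linked proteins, older symbols included) had 27 tested genes. It had a median log2 fold change of 0.80 for high against low and 0.80 for very high against low. In high against low 14 of the 27 were higher without overlap and none lower, beside 10.3% of all tested genes, and 9 were higher at an unadjusted p under 0.05, beside 4.15%. In very high against low 7 were higher without overlap, beside 11.8%, and 5 were higher at an unadjusted p under 0.05, beside 4.46%. None passed the adjusted threshold in edgeR in any of the 6 comparisons.

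Phospholamban (PLN), which restrains the calcium pump of the sarcoplasmic reticulum, had the highest difference of these, chosen here after its values were seen. It had 1.71, 2.94 and 1.59 CPM in the low libraries, 45.8, 71.9 and 89.6 CPM in the high, 36.8, 39.9 and 104 CPM in the very high, and 184, 1.55 and 3.64 CPM in the very low ones (log2 fold change 5.04 for high against low). Serum response factor (SRF), the factor that myocardin assists, overlapped in all comparisons, at 21.9 to 44.0 CPM in the low, 39.1 to 61.2 CPM in the high, 30.4 to 53.3 CPM in the very high and 29.2 to 90.5 CPM in the very low libraries. The nitric oxide receptor subunit GUCY1A1, also chosen after its values were seen, had 4.42, 15.5 and 16.2 CPM in very low replicates 1 to 3. It had 45.7, 66.1 and 10.4 CPM in the low libraries and 39.8 to 101 CPM in both upper classes. In the library with the most ACTA2, PCP4 and GUCY1A1 both lay below the upper classes, as they did in very low replicates 2 and 3.

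Nonmuscle counterparts of the members had smaller differences. Of 13 tested, the median log2 fold change was -0.09 for high against low and -0.23 for very high against low, and none passed in edgeR in any comparison. At an unadjusted p under 0.05, 2 were higher in each of these comparisons, beside 4.15% and 4.46% of all tested genes, and 2 were lower in very high against low, beside 7.44%. The cytoplasmic actins ACTB and ACTG1 had 3768 to 5562 and 3278 to 3984 CPM in the low libraries and 3321 to 5141 and 2776 to 3555 CPM in the high libraries.

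Markers of other cell types were read in the same libraries, and their part in the members' differences was not tested. The 7 pericyte markers in the table summed to 214 to 339 CPM in the low, 272 to 352 CPM in the high, 291 to 438 CPM in the very high and 116 to 388 CPM in the very low libraries. Of the 7, 1 was higher without overlap in high against low, beside 10.3% of all tested genes. The same 1 was so in very high against low, beside 11.8%. It was MCAM, shared by pericytes, endothelium and smooth muscle. In high against low 4 of the 7 differences were positive and 3 negative, and in very high against low 6 and 1. The 11 endothelial markers summed to 285 to 581 CPM in the low, 309 to 452 CPM in the high, 237 to 425 CPM in the very high and 157 to 375 CPM in the very low libraries, with very low replicate 1 the lowest.

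Epithelial markers summed to 1905 to 3447 CPM in the low and 1627 to 2116 CPM in the high libraries. They summed to 1606 to 1933 CPM in the very high libraries and to 210, 5788 and 2723 CPM in very low replicates 1 to 3. Of the 11, 9 had negative and 2 positive differences, both in high against low and in very high against low. The ranges of 2 and 4 of them were lower without overlap, beside 9.68% and 11.1% of all tested genes. At an unadjusted p under 0.05, 0 and 2 were lower, beside 6.11% and 7.44%. None passed the adjusted threshold in edgeR in these comparisons. The 8 leukocyte markers summed to 493 to 1892 CPM in the low, 229 to 511 CPM in the high, 248 to 367 CPM in the very high and 642 to 1597 CPM in the very low libraries. All 8 were lower at an unadjusted p under 0.05 in high against low (median log2 fold change -1.80) and in very high against low (-2.20), where 6.11% and 7.44% of all tested genes were lower. The ranges of 4 and 7 of them did not overlap in these comparisons, where 9.68% and 11.1% of all tested genes were lower without overlap, and none passed the adjusted threshold in edgeR. Of the 8, CD68 and ITGAM fell in very high against very low, by 2.52 and by 2.61 on the log2 scale (edgeR adjusted p = 0.0333 and 0.0415). In that comparison 1.52% of all tested genes passed. There 7 of the 8 were lower at an unadjusted p under 0.05, beside 13.4% of all tested genes. The ranges of all 8 were lower without overlap, beside 12.2%. Stromal markers ran from 6146 to 54676 CPM within the very low class alone.

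Striated muscle markers had few reads. The 17 in the table summed to 16.3 to 23.5 CPM in the low, 50.2 to 90.4 CPM in the high, 49.7 to 185 CPM in the very high and 18.1 to 27.4 CPM in the very low libraries, and 3 to 9 of them had no read in a given library. MYH2, MYL1 and MYOG had 0 reads in all 12 libraries. The cardiac actin ACTC1 had 1, 8 and 1 reads in the low libraries and 248, 386 and 221 in the high. It had 226, 254 and 1085 reads in the very high and 0, 1 and 11 in the very low libraries. ACTC1 rose in very high against very low by 6.67 on the log2 scale (edgeR adjusted p = 0.0333), where 1.52% of all tested genes passed. Of the 9 markers tested, 6 had positive and 3 negative differences, both in high against low and in very high against low.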

How the data were processed

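Endometrial biopsies of 12 samples were sequenced from oligo-dT captured messenger RNA with a stranded kit in 1 pool, per the labels' protocols. The authors deposited raw counts per gene symbol, 1 column per sample, unscaled and not pooled. FastQC 0.11.2, Trimmomatic 0.32 and the builds UMD3.1 and bosTau8 stand in the submitters' processing notes. No aligner, counting program, strand setting or annotation is given in those sources. All 34 members matched the RefSeq genes (assembly ARS-UCD2.0) by symbol, and 10 overlap another gene of it, 2 of them a tested gene. Coordinates are left out because the builds differ.

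Genes were kept by filterByExpr (count minimum 10), scaled by TMM and tested with edgeR 4.0.16 in R 4.3.3, by a quasi-likelihood model of 4 class means over all 12 libraries (8 residual degrees of freedom), with p-values adjusted over all 10959 tested genes at a threshold of 0.05. A standard error is the log2 fold change over the root of F. SD is over 3 libraries. Ranges do not overlap when the lowest CPM of 1 class exceeds the highest of the other. In full per library, the text gives the 3 members of each role with the highest mean CPM and the highest and lowest fold change of each comparison, and ranges or counts otherwise. Alternatives were DESeq2 1.42.0, limma-voom (limma 3.58.1), RLE factors, TMM without muscle genes, no filter, 2 classes alone, a replicate block and leaving out each library. The test was also run on simulated counts in which no library was set apart as very low replicate 1 was. That run therefore says nothing of this case. As a check for libraries deposited more than once, replicates were compared by chi-square (21.8 to 284 over its degrees of freedom), and each counted as 1 sample. Members and lists were chosen with earlier results of these data known.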

Additional observations from a re-analysis of the deposited data

How the results depend on the processing

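With all 12 libraries no member passed in any edgeR test. With DESeq2 that count of 0 became 15 for high against low, 11 for very high against low and 13 for very low against low. It became 2 for very high against very low and 1 for high against very low. In the DESeq2 joint test 10 members passed, beside 11.9% of all tested genes. The count became 6 and 11 in fits of the 2 classes alone for high against low and very high against low. Leaving out 1 library gave 0 to 18, 0 to 13, 0 to 0, 0 to 15 and 0 to 11 members in the same order of 5 comparisons, 0 to 0 for very high against high and 0 to 18 in the joint test. Each value above 0 came from leaving out very low replicate 1. RLE factors, TMM without muscle genes, no filter and limma-voom left all 7 counts at 0. With the replicate number as a block all 7 counts were also 0. The numbers share no stated origin, and same-numbered libraries had correlated deviations above 0.1 in 3 of 18 pairs (-0.30 to 0.29), with 4 of 12 libraries closest to their own number.

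Counts of genes without overlap, tried under alternatives chosen after seeing the data, were 27 to 32 for high against low and 29 to 31 for very high against low when 1 library was left out. They ran from 2 to 16 for very low against low, 1 to 27 for very high against very low, 1 to 28 for high against very low and 2 to 8 for very high against high. Library totals without scaling gave 2 for high against very low. The 16 came without very low replicate 2, the 27 and 28 without very low replicate 1 and the 8 without very high replicate 3. Without very low replicate 1, 20% of all tested genes were higher and 21.7% lower without overlap in very high against very low. In high against very low 18% were higher and 19.2% lower. With all 12 libraries 13.4% of all tested genes were higher without overlap in very high against very low. For the other left-out libraries the share of all tested genes was not taken. Their counts, the 16 and the 8 among them, are therefore not read as a result about these genes. Among single genes, signs turned where differences were near 0. CNN3 in high against low had -0.00698 with the replicate block and -0.17 to 0.12 over the fits that left out 1 library. Over those fits CNN2 ran from -0.026 to 0.30 and HSPB6 from -0.20 to 0.79 in the same comparison. In very high against low HSPB6 ran from -0.85 to 0.12 and CRYAB from -0.56 to 0.091, both turning without low replicate 3. PCP4 in very low against low ran from -0.36 to 0.96 and had -0.17 with limma-voom. DES in high against very low ran from -1.73 to 4.74, the last without very low replicate 1, and had 2.38 with limma-voom. The cause was not tested. Counts in the low class limit KCNMB1, which rests on 3 reads there.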
